A study of Mus musculus with 6 samples.

Results

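The genes for the proteins of the cytosolic ribosome were followed in fasted liver with and without hepatocyte *Pak4*. They were chosen by name and type, as protein-coding genes whose symbol has the form used for ribosomal proteins (*Rpl*, *Rplp*, *Rps* or *Rpsa*, with the kinases named *Rps6k* left out), and numbered 84 of the 45777 genes in the table, 52 for the large and 32 for the small subunit. Of these, 81 entered the test, 49 large and 32 small, beside 18636 genes tested in all. The remaining 3 are variants of the large subunit that were close to undetected: *Rpl3l* had at most 10 read counts in a mouse, *Rpl39l* at most 2, and *Rpl10l* had 0 in all mice, and each was left out for having more than 1 zero count. The WT group was 3 *Pak4* flox/flox mice and the LKO group was 3 Alb-Cre; *Pak4* flox/flox mice, all C57BL/6 males, 8 weeks old and fasted for 24 h, with 1 library per mouse. Cre was expressed from the albumin promoter, and the labels call the deletion hepatocyte-specific. *Pak4* was not measured separately in other liver cells. RNA came from whole liver, where fewer cells of a type and less RNA per cell cannot be told apart. All groups carry the floxed allele and were fasted, and no fed mice were part of the series.

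A ribosome is built from ribosomal RNAs and from about the same number of copies of each ribosomal protein. The small subunit reads the mRNA, and the large subunit joins amino acids and holds the exit tunnel. Most ribosomal protein (RP) mRNAs begin with a C followed by a run of pyrimidines at the 5′ end, the TOP motif, through which mTORC1 and LARP1 set their translation and stability when nutrients run short. In liver, ribosome content falls with fasting and returns with food.

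The promoter sequences of RefSeq (GRCm38.p6) held an entry for 64 of the 84 RP genes. The windows below run from 10 bases before to 20 bases from the annotated start, on the strand of the gene, and are shown for 4 genes near the top of the range of log2 fold changes (*Rps14*, the first in order, is not printed) and for the 4 at its bottom. Capitals mark the longest run of a C followed by at least 5 further pyrimidines, and a window in lower case has no such run.
*Rps27*, chr3:90213629-90213658, minus strand: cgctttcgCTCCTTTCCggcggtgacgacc
*Rps7*, chr12:28635934-28635963, minus strand: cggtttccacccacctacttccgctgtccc
*Rpl35*, chr2:39005112-39005141, minus strand: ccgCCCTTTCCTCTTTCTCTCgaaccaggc
*Rpl13a*, chr7:45128726-45128755, minus strand: cctgcgacaagaCCTCCTCCTTTCCCaggc
*Rpl28*, chr7:4792955-4792984, plus strand: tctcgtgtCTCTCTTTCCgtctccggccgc
*Rps16*, chr7:28350679-28350708, plus strand: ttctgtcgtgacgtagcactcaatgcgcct
*Rpl14*, chr9:120571507-120571536, plus strand: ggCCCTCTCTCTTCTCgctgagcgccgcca
*Rpl27*, chr11:101442235-101442264, plus strand: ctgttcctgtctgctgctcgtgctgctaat
Such a run lay in the window of 37 of the 64 RP genes (57.8%) and of 24.9% of all 27025 genes with an entry. It was present in genes at both ends of the range: *Rpl28* and *Rpl14*, the RP genes that fell, carry runs of 10 and 14 bases, and *Rps27* and *Rpl35*, among the RP genes that rose most, carry 9 and 18.

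Libraries held between 45934632 and 59576437 counts, with WT and LKO totals overlapping. *Pak4* had 268, 210 and 271 read counts in WT livers and 85, 52 and 149 in LKO livers. After TMM scaling it stood at a log2 fold change of −0.71 ± 0.31 (SE), and edgeR's quasi-likelihood test did not call it (adjusted p = 0.101), whereas with total counts it was called lower (−1.54, edgeR adjusted p = 0.0056). The small RNAs 7SL and 7SK took 5.05% to 5.84% of counts in WT livers and 13.8% to 18.2% in LKO livers. The TMM factors, which set the scale of each library, were 1.28 to 1.43 in WT livers and 0.639 to 0.816 in LKO livers, so that the scale itself differed by genotype. Hepatocyte markers were present, at a summed level of 44224 to 47249 CPM (counts scaled to a common library size by TMM) in WT and 106186 to 129449 CPM in LKO livers. After TMM scaling, 19.6% of all genes tested were called higher and 20.5% lower. Of the 6 hepatocyte genes tested, 3 were called higher and 1 lower. Of the markers of other cells, 4 of 6 Kupffer, 3 of 5 endothelial, 2 of 5 stellate and 2 of 2 neutrophil genes tested were called higher, and of 4 erythroid genes 2 were called higher and 1 lower. On log2(TPM + 1), tested with limma, 1 Kupffer, 0 endothelial, 1 stellate and 0 neutrophil genes were called higher and 2, 3, 2 and 0 lower. There, 0 hepatocyte genes were called higher and 3 lower, and 2 erythroid genes higher and 1 lower. On that scale 2.43% of all genes were called higher and 71.5% lower. After correction for GC content and length, 4 Kupffer, 4 endothelial and 3 stellate genes were called higher and 0 lower, and neither neutrophil gene was called. Hepatocyte genes were then at 3 higher and 1 lower, and erythroid genes at 2 and 1, against 18.0% and 18.2% of all genes. After TMM scaling, 0 of 3 cholangiocyte and 0 of 5 lymphocyte genes were called in either direction by edgeR. The part of these cells in the RP values was not tested.

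RP mRNAs were higher in LKO liver as a group after TMM scaling, but by very unequal amounts. By edgeR's quasi-likelihood test (two-sided, Benjamini-Hochberg adjusted p under 0.05 over all genes tested), 58 of the 81 RP genes rose, 2 fell and 21 were not called, where 19.6% of all genes tested rose and 20.5% fell. Of the 58, 40 rose at least 2-fold and 14 at least 4-fold. The median log2 fold change was 0.96 over the RP genes, with quartiles of 0.30 and 1.86, and −0.04 over all genes. In 64 RP genes every LKO mouse was above every WT mouse, a pattern that 26.1% of all genes showed, and in 5 every LKO mouse was below, as in 27.9% of all genes. From the lowest to the highest RP gene, log2 fold changes spanned 3.69, which is a 12.9-fold range.

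**Figure D1:**
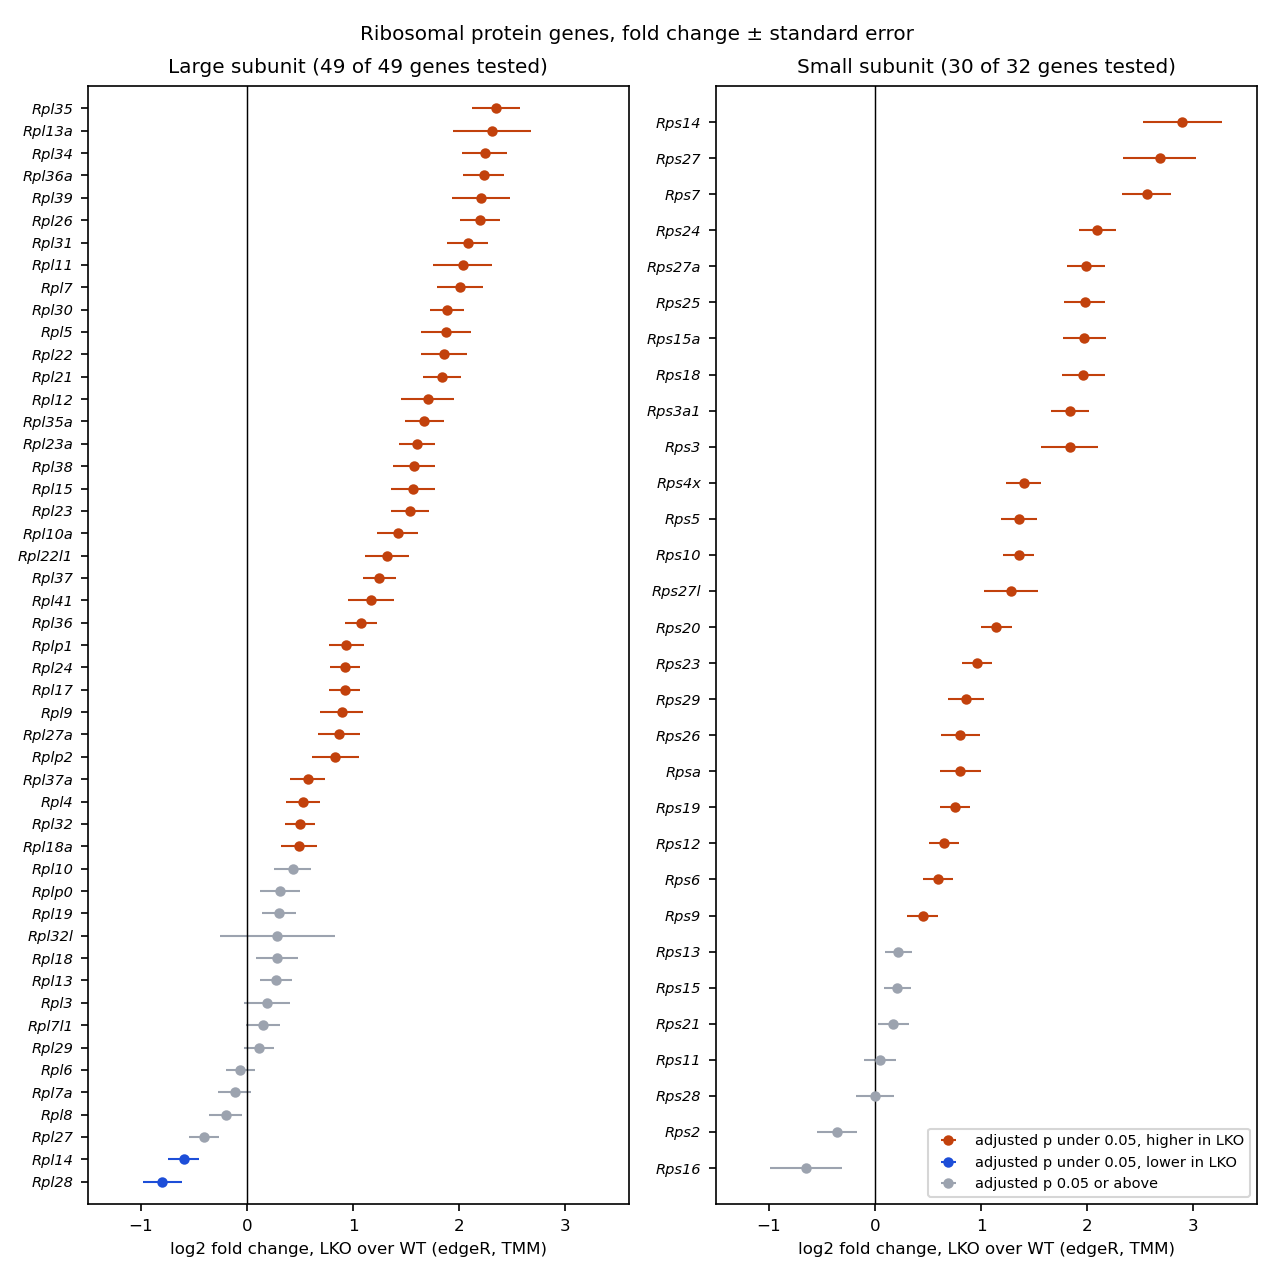
Fold changes (log2, LKO against WT, edgeR with TMM scaling) with their standard errors are plotted for the 49 large and 30 of the 32 small subunit genes tested, ordered by size. The points run from −0.80 (*Rpl28*) to 2.90 (*Rps14*), with genes called higher in orange, the 2 called lower in blue and those not called in grey.

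Among the small subunit genes 24 rose and 0 fell. *Rps14*, a protein of the platform of the small subunit (chromosome 18), was at 133, 127 and 138 CPM in WT livers and at 683, 1630 and 658 CPM in LKO livers. This was a 7.45-fold rise (log2 fold change 2.90 ± 0.37 SE, edgeR adjusted p = 0.00072), and LKO mouse 2 stood well above the other LKO livers. *Rps27*, a zinc-binding protein of the small subunit (chromosome 3, 90212667 to 90213648), was at 90.4, 92.0 and 95.2 CPM in WT and at 361, 938 and 484 CPM in LKO livers, a log2 fold change of 2.68 ± 0.34. Mouse 2 was again the highest, and no LKO value came near the WT range. *Rps7* (chromosome 12, 28630847 to 28635953), which binds MDM2 when it is free of ribosomes, was at 146, 132 and 155 CPM in WT and 714, 1121 and 721 CPM in LKO livers, a log2 fold change of 2.56 ± 0.23.

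At the other end of the small subunit, 4 genes had negative log2 fold changes that did not pass the test. *Rps16*, whose tail reaches the decoding site, was at 52.2, 46 and 45.6 CPM in WT and at 31.8, 14.7 and 44.8 CPM in LKO livers. The LKO livers were spread over a wider range than the WT livers, and the log2 fold change of −0.65 ± 0.34 was not called (edgeR adjusted p = 0.159). Without LKO mouse 3 it was −1.04 and called (edgeR adjusted p = 0.028). *Rps2*, a protein at the mRNA entry channel, had a log2 fold change of −0.36 ± 0.19, with 307, 267 and 269 CPM in WT and 228, 259 and 172 CPM in LKO livers. *Rps28* was close to 0, and its genotypes overlapped. Values near 0 and values near 3 thus stood side by side within 1 subunit.

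The large subunit had 34 genes that rose and 2 that fell. *Rpl35*, at the rim of the exit tunnel (chromosome 2, 39001581 to 39005131), was at 65.7, 64.0 and 64.1 CPM in WT and at 267, 445 and 276 CPM in LKO livers, a 5.10-fold rise (log2 fold change 2.35 ± 0.23, edgeR adjusted p = 0.00032). *Rpl13a*, which also hosts snoRNAs in its introns (chromosome 7, 45125563 to 45128745), was at 193, 211 and 225 CPM in WT and at 755, 1717 and 643 CPM in LKO livers. Its log2 fold change of 2.31 ± 0.37 was 1.74 without LKO mouse 2, whose value was more than that of the other LKO livers together. The next in order were *Rpl34* (2.24 ± 0.21), *Rpl36a* (2.23 ± 0.19), *Rpl39* (2.21 ± 0.28), a short protein in the wall of the exit tunnel, and *Rpl26* (2.20 ± 0.19), which also binds the mRNA of p53. The differences between these 4 neighbours were smaller than their standard errors.

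*Rpl28* and *Rpl14* were the RP genes called lower. *Rpl28* (chromosome 7, 4792965 to 4794547), a surface protein of the large subunit, was at 49.2, 46.2 and 48.8 CPM in WT and at 30.9, 20.6 and 31.6 CPM in LKO livers, a log2 fold change of −0.80 ± 0.18 (edgeR adjusted p = 0.0095). *Rpl14* (chromosome 9, 120571517 to 120574653) was at 105, 88.5 and 87.4 CPM in WT and at 61.5, 66.7 and 57.5 CPM in LKO livers, a log2 fold change of −0.60 ± 0.14 (edgeR adjusted p = 0.0118). The genotypes did not overlap in either gene. Without WT mouse 1 the call of *Rpl14* was lost (log2 fold change −0.50, edgeR adjusted p = 0.0529), and with a correction for GC content alone both were lost (*Rpl28* −0.47 and *Rpl14* −0.39, adjusted p = 0.0637 and 0.0592). *Rpl27* was at −0.40 ± 0.14 and just missed the threshold (edgeR adjusted p = 0.0525), with 94.4, 80.2 and 75 CPM in WT against 65.3, 62.4 and 61.3 CPM in LKO livers. *Rpl8* (−0.20 ± 0.16), *Rpl7a* (−0.12 ± 0.15) and *Rpl6* (−0.06 ± 0.14) were not called and overlapped between genotypes.

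LKO mouse 2 carried the highest value of the LKO livers in 63 of the 81 RP genes after TMM scaling and in 31 as a share of its total counts. Its TMM factor was the lowest, 0.639. Without this mouse 54 of the 58 rises were still called, with 2 falls, and the median log2 fold change was 0.93. *Rps14* was then at 2.33 and *Rps27* at 2.19.

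Levels per length (TPM, scaled to the same sum in each mouse) put the mRNAs in another order from their fold changes. In WT livers the most abundant were *Rpl41*, which encodes a peptide of very few residues, at 695, 781 and 695 TPM, *Rplp1*, an acidic protein of the stalk that recruits elongation factors, at 701, 743 and 711 TPM, and *Rpl10*, which is added last to the large subunit, at 671, 758 and 655 TPM. In LKO livers they were at 544, 598 and 495 TPM, at 480, 447 and 475 TPM and at 282, 287 and 392 TPM, respectively, all below the WT range. The ranges of *Rpl41*, *Rplp1* and *Rpl10* in WT livers overlapped, so that their order is not resolved. In LKO livers *Rps27* (759, 1481 and 1062 TPM) and *Rps14* (837, 1494 and 839 TPM) were above each of them, whereas in WT livers *Rps27* had been at 507, 556 and 506 TPM and *Rps14* at 436, 447 and 428 TPM. The lowest levels in WT livers were those of *Rpl32l*, at a mean of 1.42 ± 0.68 TPM (SD, n = 3), *Rps15a* at 29.3 ± 2.22 TPM and *Rpl7l1* at 38.3 ± 2.88 TPM. TPM divide by gene lengths from the authors' processing, so that the order between genes also rests on those lengths. The lengths were not fixed across mice. From WT mouse 1 to 2, *Rpl18* went from 7520 to 6174 read counts but from 205 to 287 TPM. *Rpl28* went from 3665 to 3025 read counts and from 175 to 181 TPM. TPM, and ratios of TPM, compared between mice also carry such shifts.

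Within a mouse, the levels of the RP mRNAs lay further apart in LKO than in WT liver. Over the 77 RP genes other than the numbered variants, the SD of log2 TPM within a mouse was 0.840, 0.835 and 0.834 in WT livers and 1.18, 1.42 and 1.15 in LKO livers. The genotypes did not overlap, and the spread was nearly the same in the WT livers. With counts divided by transcript length in place of TPM it was 0.769 to 0.783 in WT and 1.16 to 1.47 in LKO livers. This measure is taken inside each library and does not depend on the scale between libraries. It was chosen after the fold changes had been seen and describes the same differences between genes in another way.

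**Figure D2:**
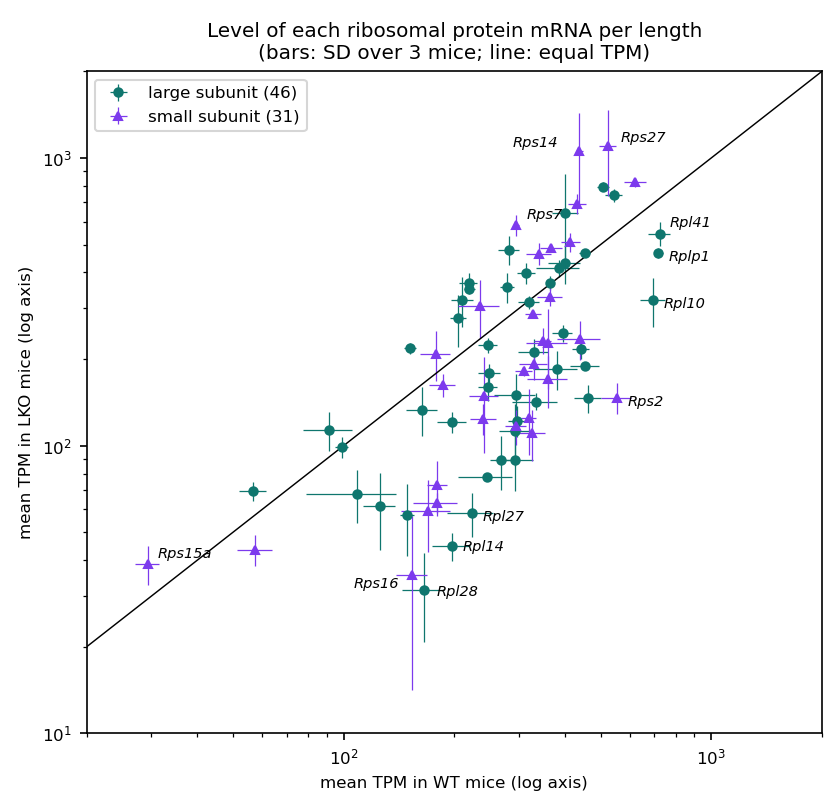
Mean TPM in WT livers (horizontal) is plotted against mean TPM in LKO livers (vertical), both on log axes, for 46 large and 31 small subunit genes, with bars for the SD over 3 mice and a line of equal TPM. The points spread further along the vertical than along the horizontal axis, with *Rps14* and *Rps27* above the line and *Rpl28*, *Rpl14*, *Rps16* and *Rpl27* far below it.

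The summed level of all RP mRNAs depended on the scale. After TMM scaling it was 10009, 9101 and 9695 CPM in WT livers and 21252, 30094 and 21147 CPM in LKO livers, a 2.48-fold difference with no overlap. As a share of the total counts it was 1.35%, 1.30% and 1.24% in WT livers and 1.73%, 1.92% and 1.64% in LKO livers, a ratio of 1.36 and again without overlap. In TPM the direction turned: the sum was 25229, 24717 and 23152 in WT livers and 20600, 22072 and 21712 in LKO livers, a ratio of 0.881. 7SL and 7SK, which are short and so weigh more per length, held 24.1% to 28% of all TPM in WT livers and 44.4% to 53.9% in LKO livers. Within the TPM of protein-coding genes alone, RP mRNAs made up 3.83%, 3.69% and 3.35% in WT livers and 5.09%, 4.93% and 4.45% in LKO livers, a ratio of 1.33, with every LKO mouse above every WT mouse. That last scale was added after the data had been seen.

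**Figure D3:**
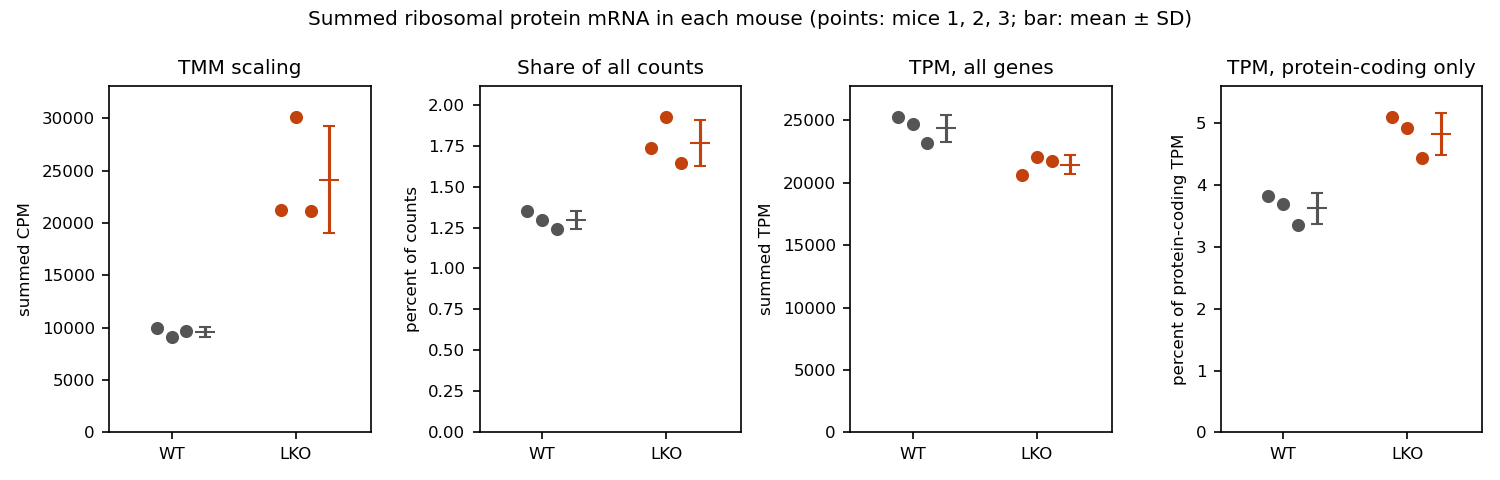
The summed RP level of each mouse (points) with the mean ± SD of 3 mice per genotype is plotted on 4 scales, all starting at 0. LKO livers lie above WT livers in TMM-scaled CPM (21147 to 30094 against 9101 to 10009), in percent of counts and in percent of protein-coding TPM, and below them in TPM over all genes (20600 to 22072 against 23152 to 25229).

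The counts of calls moved with the scale in the same way. With libraries scaled by total counts, 35 RP genes were called higher and 22 lower, where 6.26% of all genes were called higher and 51.4% lower, and the median was 0.09 for RP genes and −0.90 for all genes. On log2(TPM + 1), tested with limma, 16 were called higher and 43 lower, against 2.43% and 71.5% of all genes, with medians of −0.58 and −0.79. With a trend on gene length removed in each library, 43 were called higher and 13 lower by edgeR, against 19.3% and 19.9% of all genes, and the median was 0.48. With trends on GC content and length removed, 44 were called higher and 10 lower, against 18.0% and 18.2% of all genes, and the median was 0.53. Relative to the median of all genes, the RP median was higher on each of these 5 scales, by 1.00 after TMM scaling, 0.99 with total counts, 0.53 and 0.55 after the corrections, and 0.21 on log2(TPM + 1). The last value is not a like measure, because adding 1 to TPM shrinks the fold changes of genes at low TPM. The SD of log2 fold changes over all genes was 0.83 there and 1.18 after TMM scaling. Over RP genes it was 0.87 and 0.89. In the TMM fit over protein-coding genes alone, which leaves 7SL and 7SK out, 59 RP genes were called higher and 2 lower.

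**Figure D4:**
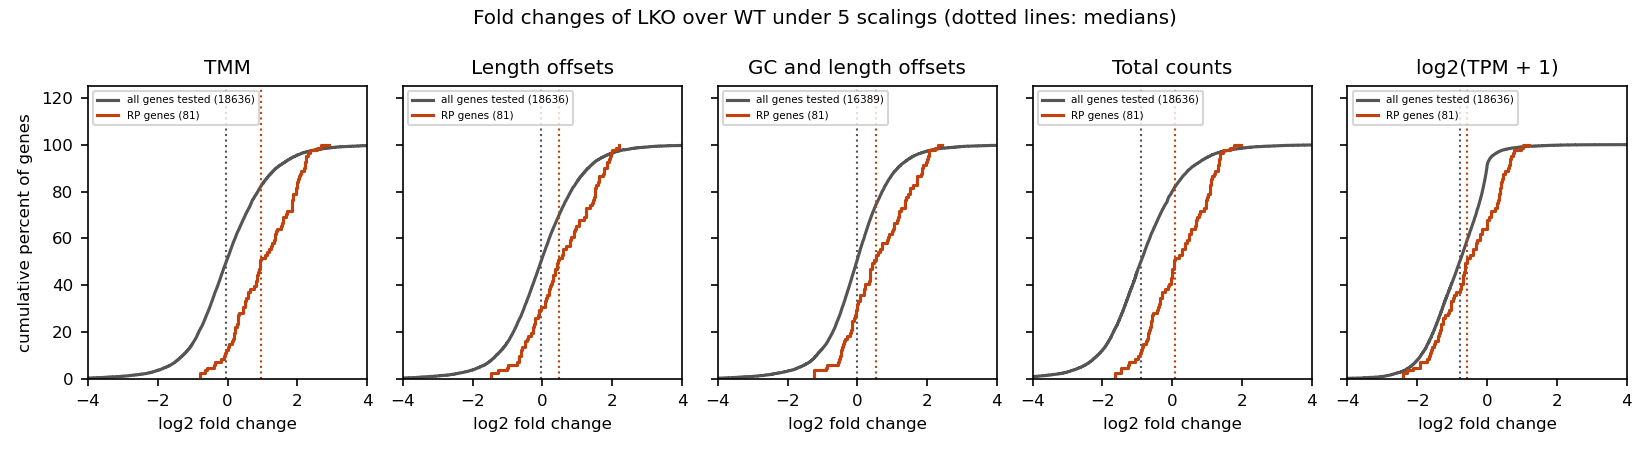
Cumulative distributions of log2 fold changes (LKO against WT) are drawn for the 81 RP genes (orange) and all genes tested (grey) on 5 scales, with dotted lines at the medians. The RP curve lies to the right of the curve of all genes around the median in each panel, by 1.00 with TMM and by 0.21 on log2(TPM + 1), while the place of 0 moves with the scale.

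On all 5 scales, 16 RP genes were called higher and 2 lower. The share of all genes with such joint calls was not computed. It cannot exceed 2.43% for higher, the share on log2(TPM + 1), or 18.2% for lower, the share after correction for GC content and length. Among the 16 were *Rps7*, *Rps14*, *Rps15a*, *Rps18*, *Rps25*, *Rps27* and *Rps27a* of the small subunit and *Rpl5*, *Rpl7*, *Rpl26*, *Rpl31*, *Rpl34*, *Rpl35*, *Rpl36a* and *Rpl39* of the large subunit. *Rpl5* encodes the protein that carries the 5S RNA into the large subunit, and *Rps27a* encodes ubiquitin fused to its ribosomal protein. The 2 called lower were *Rpl28* and *Rpl14*. By contrast, 21 RP genes were called higher after TMM scaling and lower on log2(TPM + 1). The share of all genes with this pair of calls was not computed either. It cannot exceed 19.6%, the share called higher after TMM scaling. Log2 fold changes were positive in 71 of the 81 RP genes after TMM scaling and in 28 on log2(TPM + 1). The direction of many single RP genes can thus be given only together with the scale.

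To compare RP genes with each other whatever the scale of the group, the summed counts of the RP genes served as library size. Relative to this sum 23 of the 81 RP genes were called higher in LKO livers and 33 lower by edgeR, where 2.84% of all genes were called higher and 64.6% lower. *Rps14* (1.5 ± 0.25 on the log2 scale), *Rps27* (1.29 ± 0.24), *Rps7* (1.22 ± 0.18) and *Rpl35* (1.00 ± 0.18) gained most. *Rpl28* (−2.05 ± 0.29), *Rpl14* (−1.90 ± 0.20), *Rps16* (−1.87 ± 0.43), *Rpl27* (−1.69 ± 0.21) and *Rps2* (−1.68 ± 0.20) lost most. *Rplp1* (−0.39 ± 0.18) and *Rpl41* (−0.17 ± 0.18) were not called. After correction for GC content and length, 18 of the 23 and 30 of the 33 were still called in the same direction. With the median ratio over the RP genes setting the library size in place of their sum, 30 were called higher and 28 lower.

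Small subunit mRNAs made up a larger part of the RP counts in LKO than in WT livers. The ratio of summed large to summed small subunit counts, which does not depend on the scale between libraries, was 1.5, 1.52 and 1.55 in WT livers and 1.30, 1.29 and 1.26 in LKO livers. The genotypes did not overlap, and the ratio was 0.844 times as high in LKO livers. In TPM it was 1.39, 1.45 and 1.45 in WT livers and 1.26, 1.21 and 1.19 in LKO livers. Gene by gene the subunits were closer, with a median log2 fold change of 0.93 over the 49 large and 1.05 over the 32 small subunit genes.

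In 4 of the 6 pairs of a variant and its parent gene that were tested, each LKO ratio of TPM was below each WT ratio. *Rps27l*, a p53-inducible relative of *Rps27*, was at 446, 407 and 407 TPM in WT livers and at 351, 399 and 271 TPM in LKO livers. Its ratio to *Rps27* was 0.879, 0.732 and 0.805 in WT livers and 0.462, 0.269 and 0.256 in LKO livers, without overlap. *Rpl36al* and *Rpl36a*, which encode nearly identical proteins, were about equal in WT livers, with ratios of 1.19, 0.981 and 1.01, and at 0.525, 0.496 and 0.641 in LKO livers. *Rpl22l1* was above *Rpl22* in every mouse, with ratios of 2.11, 2.19 and 2.02 in WT and 1.15, 1.45 and 1.65 in LKO livers. *Rpl7l1*, a nucleolar relative of *Rpl7*, had ratios of 0.0728, 0.0766 and 0.0630 in WT and 0.0246, 0.0170 and 0.0179 in LKO livers. After TMM scaling *Rps27l* (log2 fold change 1.28 ± 0.26) and *Rpl22l1* (1.32 ± 0.21) were called higher by edgeR. Their parents rose more, with 2.68 for *Rps27* and 1.86 ± 0.21 for *Rpl22*. *Rpl36al* also rose, as given below, and *Rpl7l1* (0.15 ± 0.16) was not called, beside 2.01 ± 0.22 for *Rpl7*.

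The remaining pairs concern low genes. *Rps27rt*, a retrogene copy of *Rps27*, rose on its own (9, 16 and 13 read counts in WT and 79, 98 and 99 in LKO livers), and its ratio to *Rps27* was 0.00114, 0.00246 and 0.00190 in WT and 0.00461, 0.00277 and 0.00408 in LKO livers. Reads of the parent gene may be assigned to such a copy, which these counts cannot separate. *Rps4l*, annotated as a transcribed pseudogene, had a ratio to *Rps4x* of 0.0142, 0.0250 and 0.0340 in WT and 0.0117, 0.00555 and 0.0190 in LKO livers, with overlap. Over the 6 pairs, 5 had p = 0.1 in the two-sided exact permutation test, the smallest value that 3 against 3 mice allow, and 0.12 after Benjamini-Hochberg adjustment over the pairs. *Rps4l* had p = 0.2 in the exact test.

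**Figure D5:**
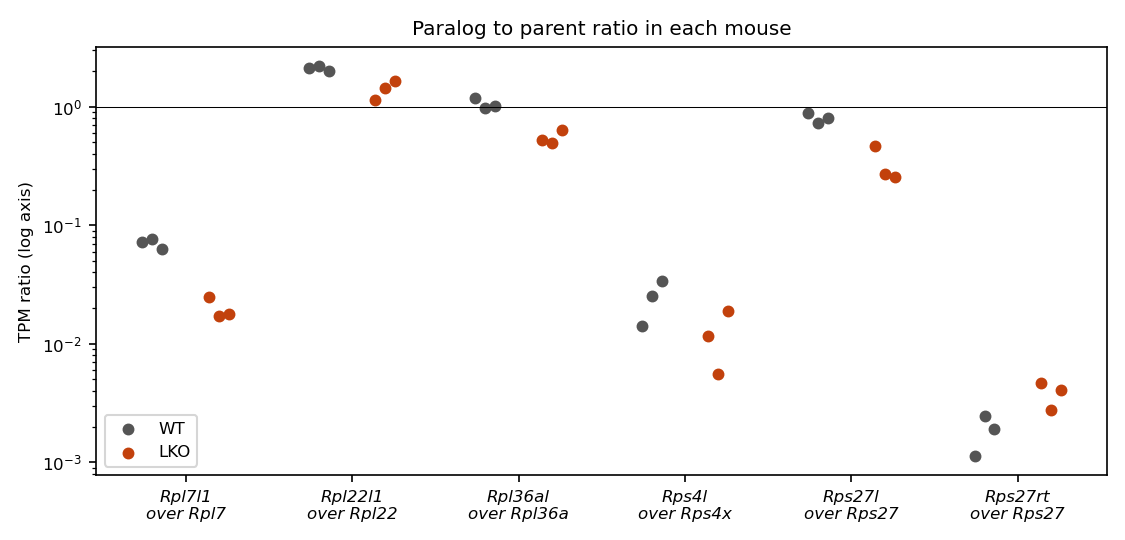
The ratio of TPM of each variant to its parent gene is plotted on a log axis for the 3 WT (grey) and 3 LKO mice (orange), with a line at a ratio of 1. LKO points lie below WT points for *Rpl7l1*, *Rpl22l1*, *Rpl36al* and *Rps27l*, above them for *Rps27rt*, and among them for *Rps4l*.

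Features outside the counts went only partly with the size of the change. Split by GC content of the transcript, the 27 RP genes of lowest GC (39.8% to 49.6%) were at a median log2 fold change of 1.6 with 26 called higher. The middle 27 (49.8% to 54.2%) had a median of 0.59 with 15 called higher, and the 27 of highest GC (54.3% to 60.8%) had 0.83 with 17 called higher. The genes of highest GC held the whole range, from *Rpl28* to *Rps14*. Across the 81 genes, Spearman's rho of log2 fold change was −0.26 with GC content and −0.04 with relative length, as a description over genes that share libraries. Over all genes the rho with GC content was −0.27, for 16389 genes with a value.

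The 30 RP genes with an annotated snoRNA inside the gene had a median log2 fold change of 0.82, with 20 called higher and 0 lower. The 50 without had a median of 1.30, with 38 called higher and 2 lower. In the 300 bases of promoter, the letters CCGGAAG, a core to which ETS factors bind, occurred on either strand in 26 of 64 RP genes and in 9.93% of all genes with an entry. Among the RP genes tested, the 25 with these letters had a median of 1.35 with 21 called higher, and the 36 without had 0.70 with 22 called higher. The letters AAGATGGC, a core of YY1 sites, occurred in 6 RP genes and 3.19% of all genes, and TATAAA, the TATA box, in 8 and 15.7%. The 36 tested genes with a pyrimidine run at the start had a median of 1.12 and the 25 without had 0.92. The ranges of the groups with and without each of these letters overlapped over most of their width.

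Processed copies of RP genes could take or lend reads. The table held 221 pseudogenes named after RP genes, with 1.48% to 1.61% of the RP counts in WT livers and 1.15% to 1.27% in LKO livers. Their counts came to more than 5% of the parent's for 9 RP genes, among them *Rpl15* (16.5%), *Rpl10* (12.1%) and *Rpl10a* (10.2%). With these counts added to the parents, 58 RP genes were called higher and 2 lower.

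Of 5 ribosome components that the naming rule does not cover, 3 were called higher and 0 lower after TMM scaling, against 1 and 2 with total counts and 1 and 3 on log2(TPM + 1). Of all genes, 19.6%, 6.26% and 2.43% were called higher on these scales, and 20.5%, 51.4% and 71.5% lower. *Fau*, a ubiquitin-like fusion that yields a small subunit protein, was at 0.32 ± 0.14 and *Rack1*, a signalling scaffold on the small subunit, at 0.40 ± 0.18, and neither was called. *Rpl36al* rose by 1.27 ± 0.17. *Fau* turned negative after the length correction (−0.39) and with total counts (−0.56).

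Other mRNAs that share the TOP motif or serve translation did not move as one group after TMM scaling, where 19.6% of all genes rose and 20.5% fell. Most were called lower with total counts and on log2(TPM + 1), scales on which 51.4% and 71.5% of all genes were called lower. Of 22 further TOP mRNAs, 9 rose and 3 fell after TMM scaling, with a median log2 fold change of 0.29. By comparison, 3 were called higher and 13 lower with total counts, and 2 and 18 on log2(TPM + 1). After correction for GC content and length, 5 were called higher and 2 lower, against 18.0% and 18.2% of all genes. *Eif3e*, a subunit of the initiation factor eIF3, rose from 66.9, 60.1 and 70.9 CPM to 308, 403 and 315 CPM (log2 fold change 2.37 ± 0.18), and *Naca*, which guards nascent chains at the exit tunnel, rose by 1.90 ± 0.16. *Eif3l*, of the same eIF3 complex, fell by 0.86 on the log2 scale, and *Eef2*, the translocation factor, fell by 0.69. The fall of *Eef2* was not called after the GC correction (−0.36, edgeR adjusted p = 0.115) or without WT mouse 1 or 3 (adjusted p = 0.0555 and 0.0550). Of 49 translation factors, 18 rose and 9 fell after TMM scaling, with a median of −0.03. By comparison, 5 were called higher and 30 lower with total counts, and 2 and 39 on log2(TPM + 1). After correction for GC content and length, 15 were called higher and 7 lower. The translation factors called after TMM scaling included *Eif3m* (2.31 ± 0.18), *Eef2k*, the kinase of eEF2 (−2.06 ± 0.29), and *Eif1ad* (−0.98 ± 0.18). The list of translation factors shares some genes with the TOP list.

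Genes that make ribosomes were called in both directions after TMM scaling, where 19.6% of all genes were called higher and 20.5% lower. Most were called lower with total counts and on log2(TPM + 1), as were 51.4% and 71.5% of all genes. Of 82 ribosome biogenesis genes, 22 rose and 19 fell after TMM scaling, with a median of 0.02, beside −0.04 over all genes. With total counts 6 of them were called higher and 52 lower, and on log2(TPM + 1) 1 was called higher and 73 lower. After correction for GC content and length, 16 were called higher and 15 lower, against 18.0% and 18.2% of all genes. After TMM scaling *Rpf2* (1.99 ± 0.17), which loads the 5S particle, and *Nip7* (1.92 ± 0.22) rose most. *Noc4l* (−2.36 ± 0.23) and *Nolc1* (−1.64 ± 0.17), a nucleolar chaperone of snoRNPs, fell most. Of 20 RNA polymerase I genes tested, 6 rose and 5 fell after TMM scaling. The counts were 2 and 12 with total counts, 0 and 18 on log2(TPM + 1), and 3 and 5 after correction for GC content and length. Those called after TMM scaling included *Polr2k* (1.72 ± 0.22) and *Taf1b* (1.59 ± 0.21), and *Rrn3*, the initiation factor that responds to growth (−1.06 ± 0.21), and *Polr2l* (−0.95 ± 0.18). *Polr2k* and *Polr2l* encode subunits shared with RNA polymerases II and III. The rise of *Polr2k*, a short gene, was not called after correction for GC content and length (0.20, edgeR adjusted p = 0.363). Of 24 regulators of RP mRNAs, 4 rose and 6 fell after TMM scaling, against 1 called higher and 19 lower with total counts and 0 and 22 on log2(TPM + 1). After correction for GC content and length, 3 were called higher and 7 lower. *Mtor*, the kinase of mTORC1, was at 58.9, 60.6 and 76.1 CPM in WT and 31.4, 29.2 and 20.3 CPM in LKO livers (log2 fold change −1.27 ± 0.20), and its partner *Mlst8* was at −1.31 ± 0.20. *Cnbp*, which binds TOP mRNAs, rose by 1.35 ± 0.20, and *Eif4e*, the cap-binding protein, by 0.79 ± 0.16. mRNA levels of these genes do not give mTORC1 activity, which was not measured here.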

How the data were processed

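Liver RNA of 3 WT and 3 LKO mice was sequenced in 1 library each, as paired reads. For the input, the methods give 0.5 μg with rRNA removed and the labels 1 μg with an mRNA kit. Per the submitters' processing notes, HISAT2 2.1.0, Bowtie2 2.3.4.1 and StringTie 2.1.3b were among the tools, with mm10. The authors deposited, per gene and mouse, read counts without normalization as well as FPKM and TPM. Deposited counts are whole and are estimated by StringTie from coverage. FPKM, computed by the authors per kilobase and by depth, entered only through relative gene length (count over FPKM). TPM, also deposited by the authors, add up to an equal sum in every mouse.

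Genes with more than 1 zero count were left out. TMM-scaled counts were tested with edgeR 4.0.16 (quasi-likelihood, genotype only, two-sided) in R 4.3.3. The methods' exactTest, DESeq2 1.42.0 and limma 3.58.1 on log2(TPM + 1), with a pseudocount of 1, were alternatives, with other scalings and filters, the replicate number as a block, lowess trends (span 0.3) on length and GC content as offsets, pseudogene counts added, and each mouse left out. Same-numbered mice did not deviate together (r of −0.04 to −0.01), so the main fit did not pair them. That check cannot show whether same-numbered mice shared a litter or were handled together. The trends on GC content were added after seeing the data, as was the TPM share within protein-coding genes. GC content came from GENCODE M21 transcripts, for 87.9% of genes tested and all 81 RP genes. Coordinates are from RefSeq GRCm38.p6, the assembly behind mm10, for all 84 genes. Tests were tried on simulated counts.

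RP genes and gene lists were chosen with earlier results of these data known. Sums and ratios over RP genes are given without p-values for that reason, and paralog ratios with exact permutation tests. Named genes are the 10 highest and 10 lowest by log2 fold change, all called lower, the 3 highest and lowest in TPM, paralog pairs, the 10 that gained or lost most relative to the RP sum, 2 per direction in each pathway list, *Pak4*, *Fau*, *Rack1*, *Rpl36al* and *Rps27rt*; other RP genes were named after their values were seen. Nothing says how cages or litters were spread, and p-values measure the spread between these mice. Results for some single genes are not reported here, and these genes stay in the counts, sums and adjustment. Precision is given as SE of the model or SD of 3 mice.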

Additional observations from a re-analysis of the deposited data

How the results depend on the processing

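Total counts gave 35 RP genes called higher and 22 lower with a median of 0.089, and log2(TPM + 1) gave 16, 43 and −0.58. Length offsets gave 13 lower and a median of 0.48, and with the replicate block 38 higher, 12 lower and 0.48. GC offsets alone gave 65 higher, 0 lower and a median of 1.09 with edgeR. GC and length offsets gave 10 lower and a median of 0.53, and 6 and 0.52 with the replicate block. The replicate block alone gave 53 higher and 2 lower, and 21 and 31 relative to the RP sum. Leaving out each mouse gave 50 to 57 higher, 1 to 3 lower (1 without WT mouse 1), medians of 0.90 to 1.05, and 16 to 23 higher and 27 to 34 lower relative to the RP sum, where TMM gives 58 and 2. The summed level (log2, 1.31) was 0.44 with total counts, 0.88 with length offsets, 0.94 with GC and length offsets, 0.41 within protein-coding TPM and −0.18 in TPM, and 1.14 to 1.40 with each mouse left out. Higher values came with GC offsets alone (1.46), upper-quartile scaling (1.39) and DESeq2 size factors (1.34). The log2 ratio of large to small subunit (−0.24) was −0.20 with GC offsets, −0.18 with GC and length offsets and −0.26 to −0.23 with each mouse left out. *Pak4* was called lower with total counts (−1.54), on log2(TPM + 1) (−1.19) and without LKO mouse 3 (−1.08), and ranged from −1.08 to −0.49 with each mouse left out. Apart from the construction of each scale, the cause of these shifts was not tested.

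Single genes changed sign as follows. On log2(TPM + 1), values were −0.20 for *Cnbp*, −0.60 for *Eif4e*, −1.23 for *Fau*, −1.15 for *Rack1*, −1.13 for *Rpl10*, −0.29 for *Rpl22l1*, −1.39 for *Rpl3*, −0.58 for *Rpl32l*, −0.27 for *Rpl36al*, −0.41 for *Rpl41*, −1.34 for *Rpl7l1*, −0.62 for *Rplp1*, −0.32 for *Rps27l*, −1.01 for *Rps4l* and −0.15 for *Rps4x*. With total counts they were −0.076 for *Eif4e*, −0.56 for *Fau*, −0.48 for *Rack1*, −0.45 for *Rpl10*, −0.68 for *Rpl3*, −0.57 for *Rpl32l*, −0.72 for *Rpl7l1* and −0.45 for *Rps4l*. With length offsets they were −0.39 for *Fau*, −0.10 for *Rpl10* and −0.34 for *Rpl32l*, and with the replicate block as well −0.39, −0.11 and −0.43, with −0.080 for *Rps4l*. With GC and length offsets they were −0.23 for *Fau*, −0.10 for *Rpl10*, −0.16 for *Rpl22l1*, −0.22 for *Rpl32l* and −0.00023 for *Rps27l*, and with the replicate block as well −0.23, −0.11, −0.16, −0.31 and −0.025. With GC offsets *Rpl6* was at 0.089, *Rpl7a* at 0.12, *Rpl8* at 0.090 and *Rps28* at 0.25. *Rps28*, which lies near 0, was at 0.024 with DESeq2 and its size factors, 0.00069 with at least 10 counts, 0.029 with filterByExpr, 0.060 over protein-coding genes, 0.0067 with the replicate block, 0.079 with upper-quartile scaling, and from −0.16 to 0.13 with single mice left out (0.008 without WT mouse 3). Over protein-coding genes *Rpl6* was at 0.00055, and with upper-quartile scaling at 0.019. With single mice left out *Rpl32l* ranged from −0.34 (without LKO mouse 3) to 0.55 and *Rps4l* from −0.079 (without LKO mouse 3) to 0.70.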
